A study of Xenopus laevis with 3 samples.

Results

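Positions at which the reference protein of Xenopus laevis, the African clawed frog, carries an aromatic residue were examined: phenylalanine (F), tyrosine (Y) or tryptophan (W), with a variant that changes it to any residue other than cysteine. Members were taken from the deposited list of amino acid changing (missense) sites by their reference and new residue alone, so no measured value chose them. The rule found 1398 of 29008 missense sites (4.82%), in 1222 of 11603 genes. Phenylalanine accounted for 767 sites in 702 genes, tyrosine for 508 sites in 480 genes and tryptophan for 123 sites in 119 genes. A further 184 aromatic sites change to cysteine and are outside the rule, of which 58 had phenylalanine, 94 tyrosine and 32 tryptophan as the reference.

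The variants were read from RNA of whole NF stage 42 (Nieuwkoop-Faber series) tadpoles, which were offspring of inbred albino frogs, of inbred pigmented frogs (J strain), or of matings between those 2 populations. There was 1 library per group, made from 10 tadpoles pooled for each cross, and its stated depth was 30000000 to 47000000 reads, sequenced as pairs of 100 bases. No drug or transgene is named in the labels, and the letter codes for the strains contradict each other, so the groups are called here by their titles. The deposited tables name no library, so the crosses could not be compared and no spread between replicates could be measured.

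Aromatic residues carry a flat ring in the side chain. They often pack in the core of a folded protein, line binding pockets or lie at the edge of a membrane. Tyrosine also has a hydroxyl group, which kinases can phosphorylate, and differs from phenylalanine by that group alone, while tryptophan is the bulkiest residue and is encoded by a single codon. PolyPhen-2 is a program that predicts whether an exchange damages a protein, largely from an alignment of related sequences. Since it reads the exchange itself, its output and the residues are not independent measures.

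For each site the authors deposited a predicted probability of damage from 0 to 1 and a class. Possibly damaging sites start at 0.447 in the table and probably damaging sites at 0.909. Both classes are called damaging here, and shares are given over the sites with a prediction. Values over all missense sites include changes to cysteine unless these are said to be left out. They also deposited the number of aligned residues at the position, and the profile scores of the reference and the new residue. The difference of these scores (dScore) is above 0 where the reference residue scores higher. Changes are written with the reference residue first, then the position in the authors' protein model, then the new residue. Copies of a gene carry the letter of their subgenome, L (long) or S (short), and names such as Xelaev18003132m are the authors' gene identifiers. Wilson intervals (95%) cover counting error only.

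All 14 exchanges that occurred can be made by a change of 1 base in the codon. Phenylalanine changed most often to leucine, at 349 sites (45.5%, Wilson interval 42.0 to 49.0). Serine followed with 129 sites (16.8%), tyrosine with 122 (15.9%), valine with 90 (11.7%) and isoleucine with 77 (10.04%). Most new residues at phenylalanine positions were thus other hydrophobic residues. More single-base steps from the phenylalanine codons lead to leucine than to any other of these residues. Whether the shares differ from those that the codons alone would give was not tested, here or for the other aromatic residues. Tyrosine changed to phenylalanine at 157 sites (30.9%, Wilson interval 27.0 to 35.1) and to histidine at 154 (30.3%). Asparagine at 78 sites (15.4%), aspartate at 62 (12.2%) and serine at 57 (11.2%) made up the rest of the tyrosine sites. Tryptophan changed to arginine at 60 sites (48.8%, Wilson interval 40.1 to 57.5), so that the most frequent exchange of tryptophan put a charged residue in the place of a ring. Arginine is also reached by more single-base steps from the tryptophan codon than leucine, glycine or serine. Leucine stood at 25 tryptophan sites (20.3%), glycine at 21 (17.1%) and serine at 17 (13.8%). The ring was kept at 279 of the 1398 sites (19.96%), all of them exchanges between phenylalanine and tyrosine.

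**Figure D1:**
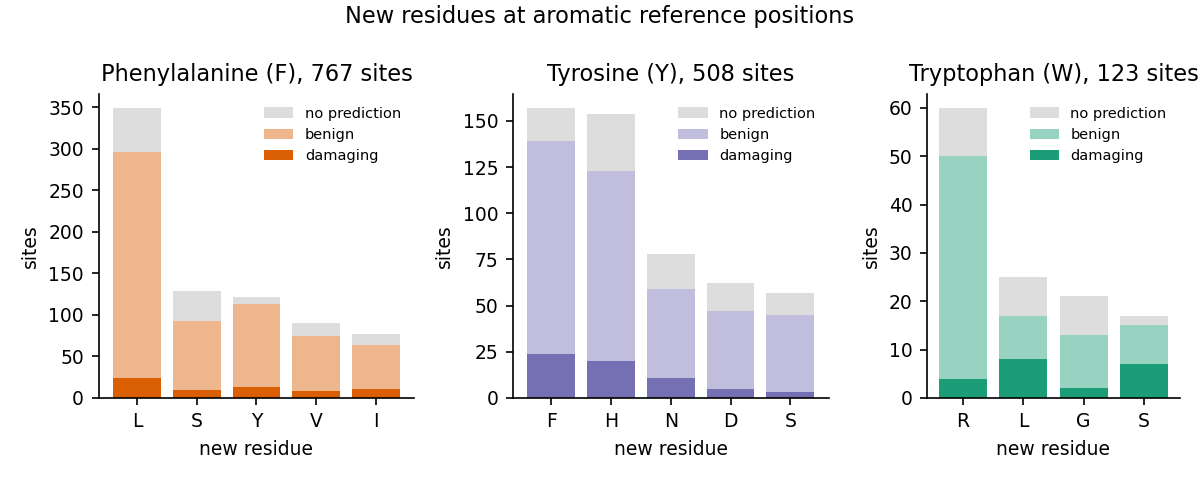
Number of sites (y axis) for each new residue (x axis, one-letter code), in a panel for each reference residue, split into sites with a damaging, a benign or no prediction. Leucine stands at 349 of 767 phenylalanine sites and arginine at 60 of 123 tryptophan sites, while phenylalanine and histidine are nearly equal at tyrosine sites with 157 and 154.

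Most aromatic sites were predicted to be harmless. Of the 1149 aromatic sites with a prediction, 150 were damaging (13.1%, Wilson interval 11.2 to 15.1), beside 19.3% of all predicted sites in the table apart from changes to cysteine. Phenylalanine had the lowest share with 66 of 641 (10.3%, 8.18 to 12.9), tyrosine stood at 63 of 413 (15.3%, 12.1 to 19.04) and tryptophan at 21 of 95 (22.1%, 14.9 to 31.4). Probably damaging sites numbered 22 for phenylalanine, 34 for tyrosine and 8 for tryptophan, or 5.57% of the predicted aromatic sites beside 6.64% over the table. Phenylalanine sites were thus more often possibly damaging (44 sites) than probably damaging. So were all predicted sites apart from changes to cysteine, with 2999 possibly and 1570 probably damaging. Tyrosine had 29 possibly and 34 probably damaging sites.

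Across the 20 reference residues, damaging odds were compared with those of all other predicted sites by logistic fits with standard errors clustered by gene. Lower odds passed for 50% and higher odds for 25% of the residues, so a difference from the remainder was common among them. Phenylalanine was among the lower ones, with 10.3% against 19.6% at the other sites, an odds ratio of 0.472 (95% interval 0.365 to 0.609) and a Benjamini-Hochberg adjusted p of 2.19e-08 in the logistic fit (n = 641 phenylalanine sites and 23004 others). Only methionine (3.30%), histidine (7.78%) and isoleucine (9.07%) had a lower share. Tyrosine had an odds ratio of 0.748 (0.564 to 0.993), which did not pass in the logistic fit (adjusted p = 0.0553, n = 413 tyrosine sites). Its log odds difference was -0.29, but 0.24 when only probably damaging sites were counted, and it passed at -0.38 without the 1% of genes with the most missense sites (logistic fit, adjusted p = 0.0155, n = 377 tyrosine sites). Tryptophan did not pass either, at 1.19 (0.716 to 1.963, adjusted p = 0.535 in the logistic fit, n = 95 tryptophan sites), an interval that holds both lower and clearly higher odds.

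Phenylalanine also had lower odds than the other aromatic residues in a fit with all 20 residues as levels. The odds ratio was 0.638 (0.441 to 0.922) against tyrosine and 0.404 (0.230 to 0.712) against tryptophan, with adjusted p = 0.0251 and 0.00508 over 3 contrasts in the logistic fit (n = 23645 sites). The odds ratio of tyrosine to tryptophan was 0.634, with an interval of 0.356 to 1.13 (logistic fit, n = 23645 sites, adjusted p = 0.121). With at least 10 aligned residues behind each prediction, neither contrast of phenylalanine passed (adjusted p = 0.0529 and 0.5003 in the logistic fit, n = 16934 sites), and without the 1% of genes with the most missense sites the contrast with tyrosine did not pass (adjusted p = 0.0527, n = 21955 sites). The lower odds of phenylalanine against the rest of the table passed under every alternative that was run.

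The predicted probabilities themselves lay close to 0. The median was 0.001 for phenylalanine, 0.002 for tyrosine and 0 for tryptophan, against 0.01 over all missense sites. A probability of exactly 0 was given to 304 phenylalanine sites (47.4%), 156 tyrosine sites (37.8%) and 58 tryptophan sites (61.1%), against 25.9% of sites with other reference residues. Tryptophan thus had the largest share of probabilities at 0 of the aromatic residues. Over all depths it also had the largest damaging share, but with at least 10 aligned residues that share was 14.8%, below the 16.4% of tyrosine. The upper quartile of the probability was 0.024 for phenylalanine, 0.161 for tyrosine and 0.197 for tryptophan. Among genes with a symbol, the sites nearest to the class boundary were F16Y in rnf152.S (0.416) and F945V in apob.S (0.417) on the benign side, and F426Y in mtmr9.L (0.474) and Y249F in nr5a2.S (0.492) on the damaging side.

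The new residue often had a higher profile score than the aromatic reference residue. The dScore was below 0 at 705 of 1149 predicted aromatic sites (61.4%, Wilson interval 58.5 to 64.1), beside 42.7% of all predicted sites apart from changes to cysteine. Phenylalanine had 430 such sites (67.1%, 63.4 to 70.6), tyrosine 211 (51.1%, 46.3 to 55.9) and tryptophan 64 (67.4%, 57.4 to 76.0). In the same kind of logistic fit, added after the data were seen, more sites below 0 than elsewhere were found for 40% of the 20 residues. All 3 aromatic residues were among them, with odds ratios of 2.81 for phenylalanine (2.37 to 3.33, adjusted p = 2.70e-32), 1.41 for tyrosine (1.16 to 1.72, adjusted p = 0.000806) and 2.78 for tryptophan (1.79 to 4.33, adjusted p = 7.80e-06) in that logistic fit (n = 23645 sites). Methionine had the highest share of sites below 0, followed by tryptophan and phenylalanine. Profile scores differ between residues even with 0 aligned residues. There tryptophan has -4.251 against -3.086 for arginine, and phenylalanine -3.22 against -2.511 for leucine. Tyrosine has -3.316 against -3.833 for histidine, which goes the other way. How far such scores set the shares below 0 was not tested, so these shares and fits do not describe the alignments alone.

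Among the aromatic residues, tryptophan had the largest share of sites at the low end of this scale. A dScore below -2 was found at 43 of its sites (45.3%). Such a value was found at 80 phenylalanine sites (12.5%), 32 tyrosine sites (7.75%) and 3.41% of sites with other reference residues. These counts have no limit on the number of aligned residues. Some of the values rest on 1 to 4 aligned residues and recur, such as -2.965 at 6 sites changing tryptophan to arginine. Low values were not confined to thin alignments. The 28 sites of that exchange with at least 20 aligned residues had a median of -2.66. A dScore above 2, at the high end, was found at 6.32% of tryptophan, 7.02% of tyrosine and 6.70% of other sites, and at 0.936% of phenylalanine sites. The median profile score of the reference residue was -4.25 for tryptophan, -3.08 for phenylalanine and -3.09 for tyrosine, against -2.46 over all missense sites. The new residues had medians of -2.51, -2.24 and -2.70 in the same order, against -2.68. These medians also cover sites with 0 aligned residues, which have no dScore. At such sites tryptophan has a reference score of -4.251, equal to its median, so the medians do not describe the dScores alone. No damaging site had a dScore below 0, neither among the 150 aromatic ones nor among those of other reference residues. The median dScore was -0.79 at benign, 1.34 at possibly damaging and 2.03 at probably damaging aromatic sites, against -0.04, 1.53 and 2.14 at the other residues. Profile scores are part of the input of the prediction, so dScores by class describe the predictor and were not tested.

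**Figure D2:**
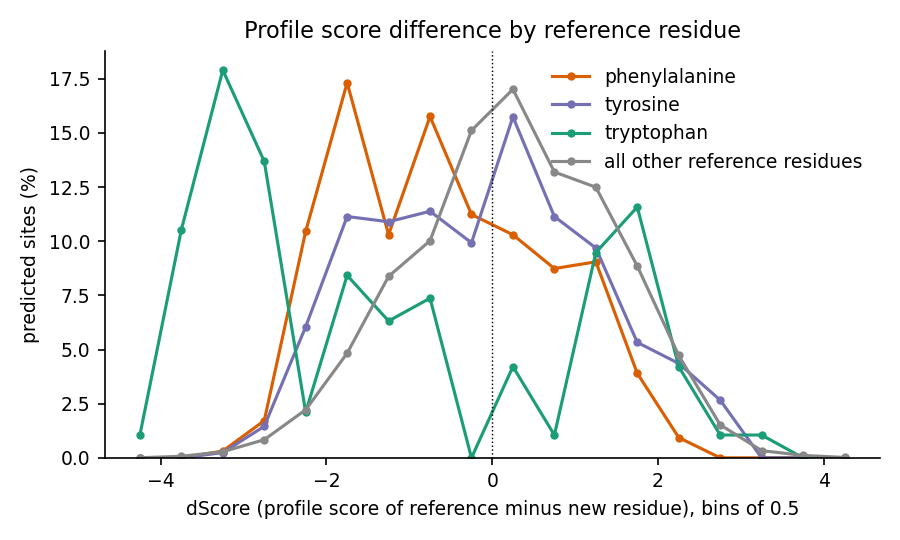
Percent of predicted sites (y axis) by dScore, the profile score of the reference residue minus that of the new residue (x axis, bins of 0.5), for each aromatic residue and for all other reference residues; the dotted line marks 0. Phenylalanine lies mostly to the left of 0 (67.1% of sites). Tryptophan has 45.3% of its sites below -2, and its other sites lie between -2 and 1 or above 1.

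**Figure D3:**
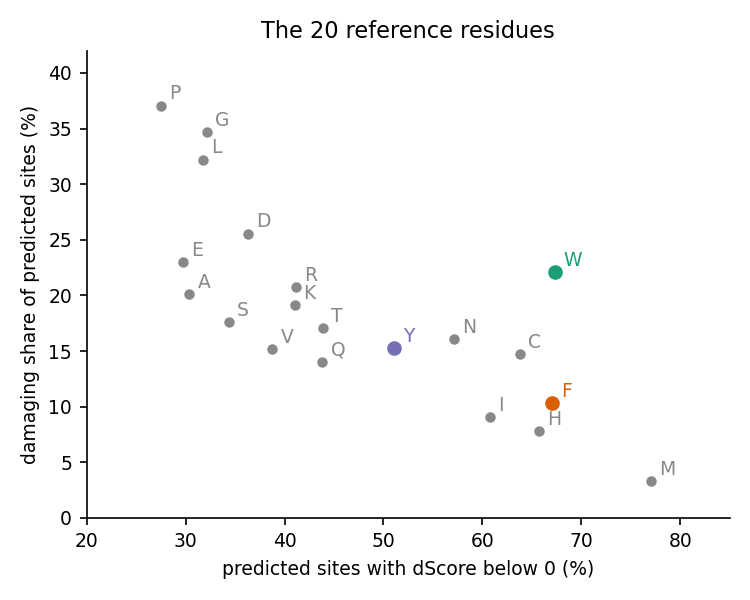
Damaging share of predicted sites (y axis, percent) against the share of predicted sites with a dScore below 0 (x axis, percent) for each of the 20 reference residues in one-letter code. Phenylalanine stands low on the right at 10.3% damaging and 67.1% below 0, and tryptophan stands above it at 22.1% damaging and 67.4% below 0.

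Damaging sites were rare where the new residue occurred in the alignment. The program reports an identity value for an aligned sequence that carries the new residue where there is one, and it did so at 772 of 1149 aromatic sites (67.2%), against 56.3% at other residues. Where it did, 24 of 772 sites were damaging (3.11%), and where it did not, 126 of 377 (33.4%). For tryptophan the counts were 1 of 59 and 20 of 36 (55.6%). At other reference residues the counts were 392 of 12675 (3.09%) and 4027 of 9821 (41.0%), so the low share is general to the table. The value and the prediction are drawn from the same alignment, so the counts describe the predictor and were not tested.

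Among the exchanges of phenylalanine, damaging shares lay close together. Change to leucine was damaging at 24 of 296 predicted sites (8.11%), to valine at 8 of 75 (10.7%), to serine at 10 of 93 (10.8%), to tyrosine at 13 of 113 (11.5%) and to isoleucine at 11 of 64 (17.2%). Their Wilson intervals overlapped throughout, from 5.51 to 11.8 for leucine up to 9.88 to 28.2 for isoleucine. Serine, a small polar residue, had the lowest median dScore of the 5 at -1.59, against -0.16 for tyrosine, the residue closest to phenylalanine in structure.

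Among the exchanges of tyrosine, too, the closest residue in structure did not have the lowest share. Change to phenylalanine, which removes only the hydroxyl group, was damaging at 24 of 139 sites (17.3%, Wilson interval 11.9 to 24.4), and change to histidine at 20 of 123 (16.3%). Change to asparagine, a polar residue, had the highest share with 11 of 59 (18.6%, 10.7 to 30.4). Change to aspartate, a charged residue, was damaging at 5 of 47 (10.6%, 4.63 to 22.6) and change to serine at 3 of 45 (6.67%, 2.29 to 17.9). The intervals overlap, so no order among these exchanges can be read from the counts. Median dScores were 0.32 and 0.18 for phenylalanine and histidine and -1.37 and -1.48 for aspartate and serine.

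Tryptophan exchanges spanned the widest range of damaging shares. Change to arginine was damaging at 4 of 50 predicted sites (Wilson interval 3.15 to 18.8%) and to glycine at 2 of 13 (15.4%), whereas change to leucine was damaging at 8 of 17 (47.1%, 26.2 to 69.0) and to serine at 7 of 15 (46.7%, 24.8 to 69.9). Arginine and glycine together had 6 of 63 damaging (9.52%, 4.44 to 19.3) with a median dScore of -2.75, and leucine and serine 15 of 32 (46.9%, 30.9 to 63.6) with a median of 1.19. These pairings were formed after the values were seen and have no test. The contrast changed with the depth of the alignment. With at least 5 aligned residues, 5 of 13 leucine and 4 of 10 serine sites were damaging, with median dScores of 0.22 and -0.56. With at least 20, the counts were 2 of 10 and 3 of 9 and the medians -0.35 and -0.61, so that their sign turned. Arginine had 2 of 28 and glycine 0 of 5 damaging at that depth, with medians of -2.66 and -3.29.

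The opposite exchanges, in which an aromatic residue is the new one, had higher damaging shares for most pairs of residues. Change from leucine to phenylalanine was damaging at 47.9% of sites (Wilson interval 42.5 to 53.3), from serine to phenylalanine at 53.9% (46.0 to 61.7) and from valine to phenylalanine at 31.5% (22.8 to 41.7). For tyrosine, change from aspartate reached 66.7% (54.7 to 76.8), from serine 52.7% (41.5 to 63.7) and from asparagine 39.5% (29.2 to 50.7). From histidine to tyrosine the share was 12.6% (7.91 to 19.5), which overlaps the 16.3% of the exchange from tyrosine to histidine. For tryptophan, change from glycine reached 84.6% (66.5 to 93.9) and from arginine 55.3% (41.2 to 68.6). Change from leucine to tryptophan went the other way at 18.8% (6.59 to 43.0), below the 47.1% of the exchange from tryptophan to leucine, with overlapping intervals.

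In all, 1593 sites gained an aromatic residue from a residue other than cysteine and 1398 lost one, a ratio of losses to gains of 0.878. Exchanges between phenylalanine and tyrosine count in both. The gains were damaging at 504 of 1321 predicted sites (38.2%, Wilson interval 35.6 to 40.8), with a median dScore of 1.15, against -0.57 for the losses. Tryptophan gains had a median dScore of 2.69 and were damaging at 56.1% of sites. Profile scores differ between residues even with 0 aligned residues, and this enters an exchange and its reverse with opposite signs. Damaging sites had no dScore below 0. How far this sets the values of gains and losses, together or by exchange, was not tested. Which strain carries the reference residue is not recorded per site, and the difference between gains and losses was not tested.

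**Figure D4:**
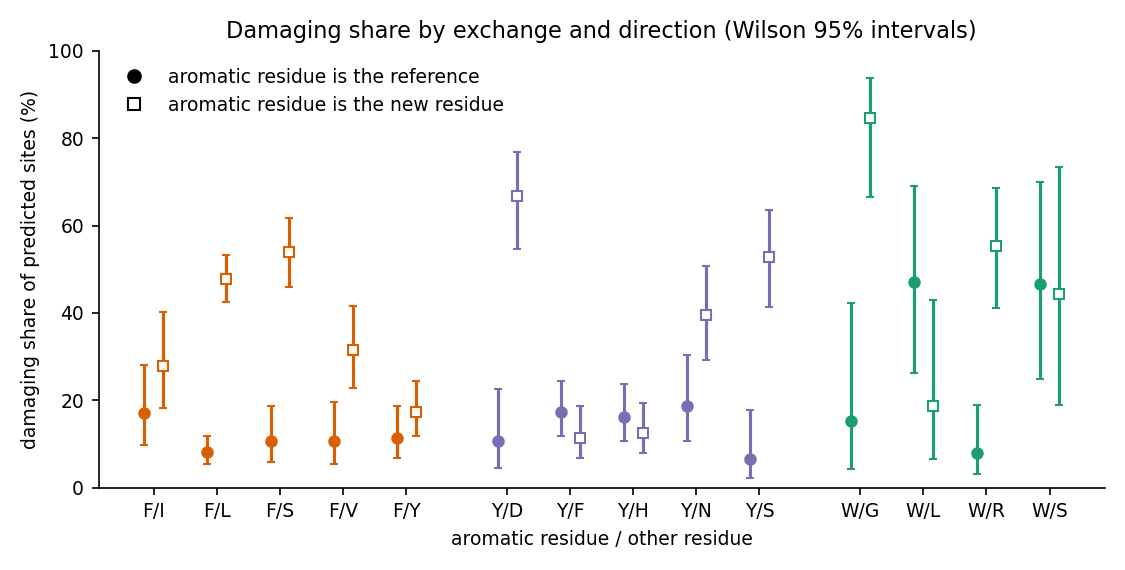
Damaging share of predicted sites (y axis, percent) for each exchange (x axis, aromatic residue first), with the aromatic residue as the reference (filled circles) or as the new residue (open squares); bars are Wilson 95% intervals, which cover counting error only. Open squares lie above filled circles, with intervals apart, for F/L, F/S, F/V, Y/D, Y/S, W/G and W/R, and the intervals overlap for F/I, F/Y, Y/F, Y/H, Y/N, W/L and W/S.

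Depth of the alignment varied widely between sites. The median number of aligned residues was 38.5 for phenylalanine (quartiles 3 and 74.25), 37 for tyrosine (3 and 76) and 12 for tryptophan (1 and 70), against 34 over all missense sites. The number was 0 at 155 aromatic sites and not given at 94, and these 249 sites (17.8%) had no prediction. Tryptophan had no prediction most often, at 28 of 123 sites (22.8%), tyrosine at 95 (18.7%) and phenylalanine at 126 (16.4%). Among sites with a prediction, the medians were 47 for phenylalanine, 47 for tyrosine and 34 for tryptophan.

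A prediction rested on 1 to 4 aligned residues at 233 aromatic sites (20.3%), and at 28 of the 95 tryptophan sites (29.5%). At this depth 10 of the 28 tryptophan sites were damaging (35.7%), against 4 of 15 with 5 to 19 aligned residues (26.7%), 4 of 26 with 20 to 79 (15.4%) and 3 of 26 with 80 or more (11.5%). Phenylalanine stood at 9.92%, 5.05%, 9.88% and 14.3% over the same bands, and tyrosine at 13.1%, 13.8%, 13.4% and 20.2%. Tryptophan thus had its highest damaging share where alignments were thinnest, and phenylalanine and tyrosine where they were deepest, with intervals that overlap within each residue. Other reference residues had 25.03% at 1 to 4 aligned residues and between 14.9% and 19.7% in the deeper bands.

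Thin alignments also gave repeated values. Of the 233 sites with 1 to 4 aligned residues, 147 (63.1%) shared both probability and dScore with another such site of the same exchange, against 7 of 744 sites (0.941%) with at least 20. The most frequent pair of values was a probability of 0 with a dScore of -1.61, at 19 sites changing phenylalanine to leucine, followed by 0.302 with 0.64 at 16 sites of the same exchange. The 3 sites changing tryptophan to leucine at 0.514 and the 3 changing tryptophan to serine at 0.617 were of this kind and all counted as damaging. The same values thus recur across different proteins. Sites of this type are part of the shares per residue and per exchange that are given without a minimum or band of aligned residues.

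**Figure D5:**
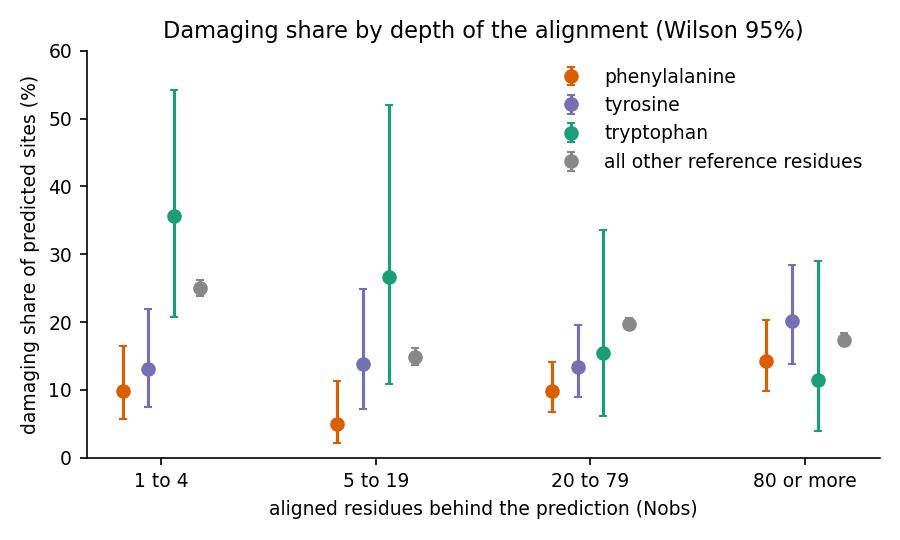
Damaging share of predicted sites (y axis, percent) by number of aligned residues behind the prediction (x axis, 4 bands) for each aromatic residue and for all other reference residues; bars are Wilson 95% intervals, which cover counting error only. Tryptophan points run from 35.7% at 1 to 4 aligned residues to 11.5% at 80 or more, with wide intervals, and phenylalanine points stay between 5.05% and 14.3%.

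Individual sites are described among genes that have a symbol, which hold 403 of the aromatic sites in 373 copies. Named sites of high or low probability have at least 20 aligned residues. The highest probabilities of phenylalanine sites were at F512Y in pck1.S, which encodes the phosphoenolpyruvate carboxykinase of gluconeogenesis, F288S in flt1.L, a receptor for vascular endothelial growth factor, and F1052V in kiaa1033-like.S, all at 1. They rested on 115, 80 and 65 aligned residues. The heparan sulfate sulfotransferase hs3st1.S followed with F98Y (0.999), the Notch ligand jag2.S with F1088S (0.998) and skil.L, a repressor of transforming growth factor beta signalling, with F258L (0.997). High values were not limited to losses of the ring: pck1.S and hs3st1.S both changed to tyrosine, each with a dScore of 1.82.

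Tyrosine sites reached a probability of 1 in 4 named copies. These were Y87H in dusp7.S, a phosphatase of MAP kinases (126 aligned residues, dScore 2.77), Y133H in atic.S, an enzyme of purine synthesis (98 and 2.67), Y139F in bdkrb2.S, a bradykinin receptor (85 and 2.04), and Y516H in h6pd.L, a hexose-6-phosphate dehydrogenase (51 and 2.83). The next were secisbp2l.L, related to a factor of selenoprotein synthesis, with Y69H (0.999) and spata2.S with Y368N (0.998). Histidine was the new residue at 4 of these 6 picked sites, beside 14 of the 34 probably damaging tyrosine sites and 30.3% of all tyrosine sites. The site in bdkrb2.S lost the hydroxyl group alone.

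Tryptophan had only 2 damaging sites with a symbol and at least 20 aligned residues. They were W784S in mcf2.S, with a probability of 1, 112 aligned residues and a dScore of 2.71, and W136L in gnl1.L, which encodes a GTP-binding protein, with 0.946 and 96. The other damaging tryptophan sites in genes with a symbol were thinly aligned. They were W4S in sema4b.L (0.973, 5 aligned residues), W141L in nrn1.S (0.935, 11), W102S in rgs16.L (0.617, 1), W30L in tyw1.S (0.514, 3), W698L in ehbp1l1-like.S (0.514, 1) and W14G in mcam-like.L (0.514, 1). These 6 were named after their values were seen.

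Benign sites with deep alignments were named by their lowest probability. That probability rests largely on the alignment, so the dScores below 0 at these sites are no separate result. Over all benign aromatic sites, 705 of 999 had a dScore below 0. All of the following had a probability of 0. At phenylalanine positions they were F242L in the keratin krt8.2.S (241 aligned residues, dScore -1.65), F845V in fndc3b.L (224, -1.97) and F503S in nxf1.S, which exports mRNA from the nucleus (184, -1.24). For tyrosine they were Y276H in the growth factor bmp2.L (370, -1.01) and, in the pentose phosphate pathway, Y219S in pgls.L (249, -1.80) and Y356S in pgd.S (248, -1.75). For tryptophan they were W2697R in mxra5.S (233, -1.72), W957R in thsd7b-like.L (228, -3.24) and W52R in osbp2.S, an oxysterol-binding protein (136, -3.77). In osbp2.S the reference tryptophan scored -5.25 and the new arginine -1.48, so arginine scored far above the residue in the reference protein.

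Aromatic sites were spread thinly over genes. A single site was held by 1079 genes, 2 sites by 123, 3 by 14, 4 by 2 and 5 by 3, and the maximum was 8 sites in 1 gene. Genes with an aromatic site had a median of 3 missense sites, against 1 over all genes. A gene with many missense sites is more likely to hold one of any kind, so this difference is no trait of aromatic sites. The gene with 8, Xelaev18003132m, has 62 missense sites, and 1 of the 8 was damaging (Y711H, 0.919). By contrast, Xelaev18028307m held 5 aromatic sites among 31 missense sites, and 4 of the 5 were damaging, with Y889N at 0.997, Y856D at 0.988, F292L at 0.893 and Y1708F at 0.628. These identifiers have no symbol in the pair table, and they were named after their values were seen.

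Among copies with a symbol, the most aromatic sites were 3. In rnf10.S, a ubiquitin ligase with a RING domain, 3 of 6 missense sites were aromatic and benign: Y324H (0.005), F334L (0) and F648L (0.001). The giant scaffold protein ahnak-like.S also had 3, among 35 missense sites, and F106L (0.044), F373V (0.001) and F2205L (0.03) were benign as well. Copies with 2 included baz1b.S, a chromatin remodelling factor whose only missense sites were Y457F (0.807) and F694S (0), and srd5a3.S, a polyprenol reductase, with F135L (0) and F155Y (0.929). In dennd2a.S the sites were Y18H (0.001) and F499I (0.857), and in psd4.S 2 changes fell on the same residue, F155L (0.302) and F155I (0.514), each behind 1 aligned residue. Each of these 4 copies thus held 1 benign and 1 damaging site.

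Positions with several listed changes were rare, with 31 aromatic sites (2.22%) against 2.69% of all missense sites. In adra2b.S, an adrenergic receptor, F198S and F198V were both benign at 0, and in ndufs7.S, a subunit of respiratory complex I, F29I (0.001) and F29S (0) were benign with 59 aligned residues. Neither gene is named by rule: both were picked with their values in view. At 13 positions at least 2 of the changes were aromatic sites under the rule.

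Gene families were described by symbol, since a gene without one cannot enter a list. The lists are patterns of symbols, so they leave out family members with other symbols, and counts below are those of the lists. Over all genes with a symbol, aromatic sites were 403 of 10005 missense sites (4.03%), with 54 of 368 predicted sites damaging (14.7%) and medians of 0.001 for the probability and -0.55 for the dScore. Counts within a family are small, and none was tested. Receptors that couple to G proteins held 9 aromatic sites among 133 missense sites (6.77%), of which 2 of 9 were damaging: Y139F in bdkrb2.S and F72L in gpr1.L (0.634, 55 aligned residues). Chromatin modifiers also held 9 (3.63%), with 3 of 9 damaging, among them F957L in the remodelling factor chd5-like.2.S (0.986, 164 aligned residues).

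The list of tyrosine phosphatases and their relatives held 6 sites, of which 3 were damaging. They were Y87H in dusp7.S, Y63H in mtm1.L (0.884, 239 aligned residues) and F426Y in mtmr9.L (0.474), the last 2 from the myotubularin family, whose active members act on phosphoinositides. Solute carriers had 2 of 6 damaging, F289Y in slc25a37.S, the mitochondrial iron importer mitoferrin (0.732, 166), and Y311F in the zinc exporter slc30a1.S (0.656, 218). The list of zinc finger proteins, which is not complete, held 5 aromatic sites among 301 missense sites (1.66%). Of these 1 was damaging, Y311N in the transcription factor klf15.2.S (0.983, 112 aligned residues). In zbtb38.S the highest value was 0.26 for F418Y. The medians of the phosphatase list were 0.238 for the probability and 0.69 for the dScore, and those of the zinc finger list 0 and -0.77.

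The 2 pigmentation genes with an aromatic site differed. In pmel-like.S, related to the gene for the fibrils of the melanosome, F158L had a probability of 0.995 with 105 aligned residues and a dScore of 1.44. In ednrb2.S, an endothelin receptor of pigment cells, F137L had 0.001 with 168 aligned residues and a dScore of -0.94. The tables do not say which strain carries either change.

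No aromatic site was damaging in the other lists. The list of protein kinases had 0 of 4, with its highest values at F141L in ulk1.S, a kinase of autophagy (0.061), and F308L in ptk2b.S, a focal adhesion kinase (0). It leaves out flt1.L, a receptor with a kinase domain, named above with a damaging site. The list of DNA repair and replication genes had 0 of 6, and its highest values were in tp53bp2.S (Y853F, 0.084) and parp12.S (F742L, 0.003), which match it by symbol only. Cadherins had 0 of 4, with dsc3.L at 0.041 (Y569F) and cdh19.S at 0.006 (F602L), and collagens and matrix genes had 0 of 4, with the integrins itgb4-like.S at 0.239 (Y72F) and itga6.L at 0.091 (F836V). The list of oxidoreductases also had 0 of 4, with F294Y in akr1b1.S (0.046) and W395S in the cytochrome P450 cyp2c8.2.L (0.001, 267 aligned residues). It leaves out the dehydrogenase h6pd.L and the reductase srd5a3.S, each named above with a damaging site.

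Lists with 3 or fewer predicted sites gave the following values. ABC transporters and ion-pumping ATPases had 0 of 3, with atp4b.L at 0.336 (Y225F) and atp2c2.L at 0.179 (F4I). The list of myosins, kinesins and dyneins had 0 of 3, with kifap3.S at 0.07 (F739L) and dnah11-like.2.L at 0 (F636L). The list of ion channels had 0 of 2, with grina.L at 0 (Y90D). Both kifap3.S and grina.L match their lists by symbol only. Aminoacyl-tRNA synthetases had 0 of 2, and their sites were deeply aligned, with Y1171F in eprs-like.L (0.019, 361 aligned residues) and Y495F in farsb.L, which charges phenylalanine to its tRNA (0.009, 319). The single WD-repeat protein site was F534L in dcaf5.L at 0.302, behind 2 aligned residues. A share of 0 in so few sites leaves room for most values.

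Xenopus laevis is allotetraploid, and many genes exist as a pair of copies (homeologs). L copies held 265 aromatic sites and 24 of 222 with a prediction were damaging (10.8%, Wilson interval 7.37 to 15.6), and S copies 320 with 42 of 292 damaging (14.4%, 10.8 to 18.9). The intervals overlap. The remaining 813 aromatic sites lay in genes outside the pair table, with 84 of 635 damaging (13.2%). Over all missense sites the shares were 20.2%, 21.6% and 18.9% in the same order, above those of the aromatic sites in each set of genes. Unlike the aromatic shares, these include changes to cysteine.

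An aromatic site was present in at least 1 copy of 506 pairs and in both copies of 20 pairs, 14 of which have a symbol. Predictions in both copies were available for 14 of the 20. No pair had a damaging aromatic site in both copies, a count from which nothing can be read at the low damaging share and this number of pairs, and in no pair did the sites share a position number. In dennd2a the L copy had F275L at 0, against F499I at 0.857 in the S copy, and in tyw1, which acts in the making of the modified base wybutosine in tRNA, W50R was at 0 in the L copy and W30L at 0.514 in the S copy. In apob, the apolipoprotein of large lipid particles, F2392Y was at 0.002 (L) and F945V at 0.417 (S). Both copies were benign at 0 in parp9, with W673R and W357L, and in osmr, with F156S and W370R. Apart from dennd2a.S and apob.S, these copies were named with their values in view.

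Position along the protein was counted as well. Within the first 30 residues lay 133 of 1398 aromatic sites (9.51%, Wilson interval 8.08 to 11.2), against 6.63% of all missense sites. The share was 10.6% for phenylalanine (8.58 to 12.9), 6.89% for tyrosine (4.995 to 9.43) and 13.8% for tryptophan (8.81 to 21.0). Alignments were thin at this end of the protein in general. Of the 133 aromatic sites, 56 (42.1%) had no prediction, the median number of aligned residues was 8, and 10 of 77 predicted sites were damaging. Over all missense sites in the first 30 residues, 639 of 1924 (33.2%) had no prediction, the median was 7, and 236 of 1285 were damaging. None of these differences was tested.

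An accessible surface from a matched protein structure was given for 44 aromatic sites in 44 genes, out of 723 missense sites with such a value. As the normalised value of the program, it had a median of 0.21 at the aromatic sites, against 0.421 over the 723. It was below 0.25 at 26 of the 44 (59.1%, Wilson interval 44.4 to 72.3), against 222 of 723 (30.7%). Low values stand for positions with little exposed surface, and this difference was not tested. Of the predicted sites, 11 of 26 below 0.25 were damaging and 2 of 16 at or above it. For tyrosine the counts were 7 of 11 and 0 of 8, and for phenylalanine 3 of 13 and 1 of 7. Over all missense sites with a surface value they were 106 of 220 and 120 of 490. The program uses this value in its prediction, so these counts were not tested.

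At the most buried positions, with a normalised surface of 0.006, the predictions covered the whole scale, and 5 of 7 sites were benign with a probability under 0.1. Most of these 7 sites were exchanges between phenylalanine and tyrosine, so they do not stand for buried sites in general. F512Y in pck1.S had a probability of 1 and Y685F in plcb4-like.L, a phospholipase, 0.608, whereas F279Y in pccb.L, a subunit of propionyl-CoA carboxylase, had 0.01. The dScores were 1.82, 1.09 and -0.17. Y87H in dusp7.S (0.011) and Y133H in atic.S (0.122) were buried as well, as were Y414H in the transcription factor nfatc1.L (0.116, probability 0.981) and F387V in the RNA-binding protein hnrnpll.L (0.249, probability 0.995). W784S in mcf2.S lay at 0.221, in a strand. F253L in cpt2.S, an enzyme of fatty acid import into mitochondria, was buried too (0.041) and benign (0.054). The sites of plcb4-like.L, pccb.L, nfatc1.L, hnrnpll.L and cpt2.S were named after their values were seen.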

How the data were processed

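Variant sites from 3 libraries of pooled tadpoles were taken from 3 tables of the whole series. Tools listed in the submitters' processing notes, with no role, are CASAVA 1.8.2, SAMtools, TopHat and Trimmomatic. Which genome build and which variant caller were used is not given in the sources used. The authors deposited PolyPhen-2 output per site, in which the probability of damage is a fraction from 0 to 1 and the profile values are a score, per the file headers. Read depth per site or library was not analysed here. Sites of 1 gene share their source, and no column names a library, so p-values refer to sites grouped by gene.

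Residues were compared with logistic fits over all predicted sites (statsmodels 0.14.6, Python 3.11.15, pandas 2.3.3), without changes to cysteine, with standard errors clustered by gene, two-sided Wald tests and Benjamini-Hochberg adjustment over 20 residues or 3 contrasts at 0.05. The fits were tested on simulated data. Intervals of shares (Wilson, 95%) cover counting error only. Symbols come from the deposited table of L and S copies.

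The members, lists and tests were chosen with earlier results of these data known. Among genes with a symbol, the text names the 6 copies with the most aromatic sites, for each residue up to 6 damaging sites of highest and 3 benign sites of lowest probability (at least 20 aligned residues), up to 2 sites of highest probability per gene list, and the 2 sites on each side of the damaging boundary; any other name is marked as chosen later. A site that this rule names in the ion channel list is not reported here. As alternatives, only probably damaging sites were counted, or those at a probability from 0.9 up; further ones were a minimum of 10 aligned residues, log2 of the aligned residues plus 1 as a covariate, changes to cysteine included, single-change positions, predicted sites only, copies of the pair table only, and omission of the 1% of genes richest in missense sites (105 genes with more than 15).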

Additional observations from a re-analysis of the deposited data

How the results depend on the processing

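Of 104 values recomputed under the alternatives, 83 kept their direction and side of the threshold or moved by less than their error. Counting probably damaging sites only gave damaging shares of 3.43% for phenylalanine, 8.23% for tyrosine, 8.42% for tryptophan and 5.57% for all aromatic sites. A probability of at least 0.9 gave the same shares, since it picks the same 64 aromatic sites. These are part of the damaging sites, so lower shares were fixed in advance. The log odds of tyrosine against other residues turned to 0.24 (adjusted p = 0.218) and 0.17 (adjusted p = 0.381) in the logistic fits of these counts, in that order (n = 413 tyrosine sites). With at least 10 aligned residues the tryptophan share was 14.8%, its log odds against other residues turned to -0.27 (adjusted p = 0.488, n = 61 sites), and the contrasts were -0.51 for phenylalanine minus tyrosine (adjusted p = 0.0529), -0.38 for phenylalanine minus tryptophan (adjusted p = 0.5003) and 0.13 for tyrosine minus tryptophan (adjusted p = 0.745, n = 16934 sites), the last one reversed. With changes to cysteine the shares were 19.2% for tyrosine and 15.4% for all aromatic sites. When the 1% of genes richest in missense sites was left out, tyrosine passed against other residues at -0.38 (adjusted p = 0.0155) and phenylalanine minus tyrosine did not, at -0.43 (adjusted p = 0.0527, n = 21955 sites). Restricted to predicted sites, the median number of aligned residues was 47 for phenylalanine and 47 for tyrosine. This rise was fixed in advance, since sites with 0 aligned residues have no prediction. Fewer sites enter some of these fits, and beyond that the cause was not tested. No library could be left out, and no paired analysis was possible because the columns carry no library. The depth of the alignment limits tryptophan most, with 95 predicted sites, 28 of them behind 1 to 4 aligned residues.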
